A study of Mus musculus with 12 samples.

Results

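Cd69, Rgs1, Rgs2, Gpr183, Ahr, Cd44 and Prdm1 are genes used to describe how lymphocytes stay in a tissue, leave it or move within it. They were taken by symbol from the deposited expression table, 7 of its 24781 genes, and are described over all 4 groups of the study. The cells were iNKT cells (invariant natural killer T), which see lipids on CD1d through a nearly fixed receptor, freshly sorted from mice aged 6 weeks. Per the labels, every library was made from 100 cells sorted as positive for the T cell receptor beta chain, NK1.1, CXCR6 and the CD1d tetramer in all groups. The groups were lung CD244-positive, lung CD244-negative, thymus CD244-positive and thymus CD244-negative cells, with 3 libraries each. The study's title calls the CD244-positive cells the C2 subset and the CD244-negative cells the C1 subset. CD244 (2B4) is a receptor of the SLAM family. Mouse strain and genotype are not given in the labels, and neither is whether cells of several animals were pooled. The labels describe the replicates as independent library preparations without naming separate animals. The spread behind each p-value is therefore that between preparations and may be technical.

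T cells leave a tissue along a gradient of sphingosine-1-phosphate, which they sense with the receptor S1PR1. CD69 binds S1PR1 and takes it off the cell surface, and RGS proteins shorten the signal of chemoattractant receptors by speeding up GTP hydrolysis on G alpha subunits. GPR183 steers cells along oxysterols, CD44 binds hyaluronan in the matrix, and the transcription factors AHR and BLIMP-1 (encoded by Prdm1) are needed for some tissue-resident lymphocytes to persist or form. These are textbook roles in lymphocytes and were not measured here.

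Molecular barcodes gave between 42520 and 51436 molecules per library in lung CD244-positive cells and between 29696 and 32196 in lung CD244-negative cells. Thymus libraries held 56615 to 71789 molecules in CD244-positive and 60120 to 67478 in CD244-negative cells. Levels are given as molecules of a gene per 10000 molecules of its library. A count of 3 molecules, taken as the floor of a library, corresponds to 0.583 to 0.706 per 10000 in lung CD244-positive, 0.932 to 1.01 in lung CD244-negative, 0.418 to 0.530 in thymus CD244-positive and 0.445 to 0.499 in thymus CD244-negative cells. Intervals and floors cover counting error only. The deposited values are scaled so that every thymus library sums to 26890.5 units and every lung library to 19342.9, a ratio of 1.39 that lowers all lung values against thymus. Fitted tissue differences are on the deposited scale unless stated, and some are also given after bringing all libraries to a common total. Those given on the deposited scale alone include this lowering of the lung values.

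The lung CD244-positive libraries also stood apart in their makeup. The summed level of 16 myeloid markers (among them C1qa, C1qb, C1qc, Apoe, Mrc1 and Cd14) was 65.8, 133 and 113 per 10000 in these libraries, against 0 to 0.663 in lung CD244-negative libraries, where 14 of the 16 markers were at 0. Thymus libraries lay between 0.299 and 1.11. All 15 tested myeloid markers were called higher, beside 5.61% of all genes. Markers at 0 in the other groups could enter the test only through the lung CD244-positive libraries, so this count adds no separate support. T lineage genes (Cd3e, Cd3d, Lck and others) summed to 28.2, 14.1 and 19.8 per 10000 in the same lung CD244-positive libraries and to between 38.4 and 43.0 in lung CD244-negative libraries. Further lists also differed between the lung fractions. MHC class II genes summed to 83.0 ± 40.2 per 10000 in lung CD244-positive libraries, against 0.430 ± 0.166 in lung CD244-negative ones, and NK cell markers to 20.5 ± 7.19, against 1.31 ± 0.325. In thymus the NK cell markers were also higher in CD244-positive libraries, at 13.7 ± 1.05 against 3.52 ± 1.60 in CD244-negative ones. The iNKT identity genes summed to 10.2 ± 3.27 in lung CD244-positive libraries and to 21.8 ± 2.87 in lung CD244-negative ones (SD, n = 3 each). The part of these lists in the results on lung CD244-positive cells was not tested. Cd244 itself numbered 1, 1 and 0 molecules in lung cells gated as positive, and those gated as negative held none, so the CD244 gate could not be checked there. In thymus it numbered 8, 1 and 4 molecules in cells gated as positive, and those gated as negative held none. The CXCR6 gate was set on protein, so its RNA is an indirect check, and it was low in libraries 2 and 3 of the lung CD244-positive cells. Cxcr6 numbered 15, 1 and 1 molecules in the lung CD244-positive libraries, against 10, 13 and 15 in the shallower lung CD244-negative ones, and 26 to 43 in the thymus libraries. Klrb1c, which encodes NK1.1, numbered 12.5, 9 and 9 molecules in lung CD244-positive libraries. It numbered 12, 9 and 11 in lung CD244-negative libraries and 43.3 to 63.8 in thymus libraries. Groups are called by their labels below, and the member differences called with all 3 lung CD244-positive libraries are also given with library 1 as the only one of its group, which is then assumed to vary like the other groups. Where such a value is given without a p, it is an effect size and does not say that a call held.

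Promoter sequence was at hand for 4 of the 7 genes, from RefSeq on GRCm38.p6. The 250 bases upstream of the start are shown for Rgs2, the member with the smallest p between the tissues in each fraction, and for Cd44, the member that differed between the lung fractions. Both are on the minus strand and are written 5′ to 3′ in the direction of transcription. Capitals mark the core of a cAMP response element, TGACG, on either strand.
Rgs2, chr1:144004150-144004399: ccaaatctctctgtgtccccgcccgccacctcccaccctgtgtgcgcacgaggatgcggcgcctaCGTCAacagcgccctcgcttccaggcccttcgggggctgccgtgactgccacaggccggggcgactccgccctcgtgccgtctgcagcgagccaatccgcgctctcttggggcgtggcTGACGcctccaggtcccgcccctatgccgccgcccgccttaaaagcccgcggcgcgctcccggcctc
Cd44, chr2:102901666-102901915: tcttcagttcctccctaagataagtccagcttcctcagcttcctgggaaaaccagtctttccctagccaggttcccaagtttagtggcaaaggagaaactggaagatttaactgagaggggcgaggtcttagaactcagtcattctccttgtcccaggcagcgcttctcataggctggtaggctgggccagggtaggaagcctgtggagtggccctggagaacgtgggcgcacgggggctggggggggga
The Rgs2 sequence holds the core in 2 places, 185 and 67 bases before the start, together with 4 GC boxes (GGGCGG) and no AP-1 letters (TGANTCA). Its GC content is 72.4%. The Cd44 sequence, at 56.4% GC, holds none of these motifs. Of 32817 mouse promoters of the same length, 17.7% hold the cAMP response element core, 32.7% the GC box and 6.75% the AP-1 letters, searched on both strands. The Prdm1 sequence holds 1 core and 1 AP-1 match and the Gpr183 sequence neither. These matches are letters in a window and do not show that a factor binds there.

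Rgs1 and Rgs2 were the members that separated lung from thymus in both fractions. RGS1 and RGS2 are both GTPase activators. RGS1 dampens Gi-coupled chemokine receptors in lymphocytes and RGS2 acts mainly on Gq. Rgs1 lies on mouse chromosome 1 at 144242296 to 144249242 (mm10, minus strand) and Rgs2 on the same strand of that chromosome at 143999338 to 144004161.

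Rgs1 had 4.91, 3.76 and 2.92 molecules per 10000 in the lung CD244-positive libraries, against 0.975, 0.631 and 1.41 in the thymus CD244-positive libraries. In CD244-negative cells it had 6.06, 3.32 and 5.90 per 10000 in lung, against 1.19, 1.79 and 1.16 in thymus. Every lung library was above every thymus library. The means were 3.86 ± 1.0 in lung and 1.01 ± 0.392 in thymus among CD244-positive cells, and 5.09 ± 1.54 in lung and 1.38 ± 0.358 in thymus among CD244-negative cells (SD, n = 3 each). Counted over the group, Rgs1 was 3.89-fold higher in lung than in thymus in CD244-positive cells (95% exact interval 2.27 to 6.94) and 3.68-fold higher in CD244-negative cells (2.24 to 6.14).

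Rgs2 had 7.78, 8.23 and 6.03 molecules per 10000 in lung CD244-positive libraries, against 1.39, 3.0 and 3.0 in thymus CD244-positive libraries. In CD244-negative cells the levels were 9.77, 9.29 and 11.5 per 10000 in lung, against 2.37, 2.24 and 3.16 in thymus. The lung and thymus libraries did not overlap in either fraction. The ratio of group levels was 3.04 in CD244-positive cells (95% exact interval 2.13 to 4.40) and 3.97 in CD244-negative cells (2.79 to 5.72). With 294 molecules over the 12 libraries, Rgs2 was counted about as deeply as Cd44 (305.5) and more deeply than Rgs1 (148) or any other member.

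**Figure D1:**
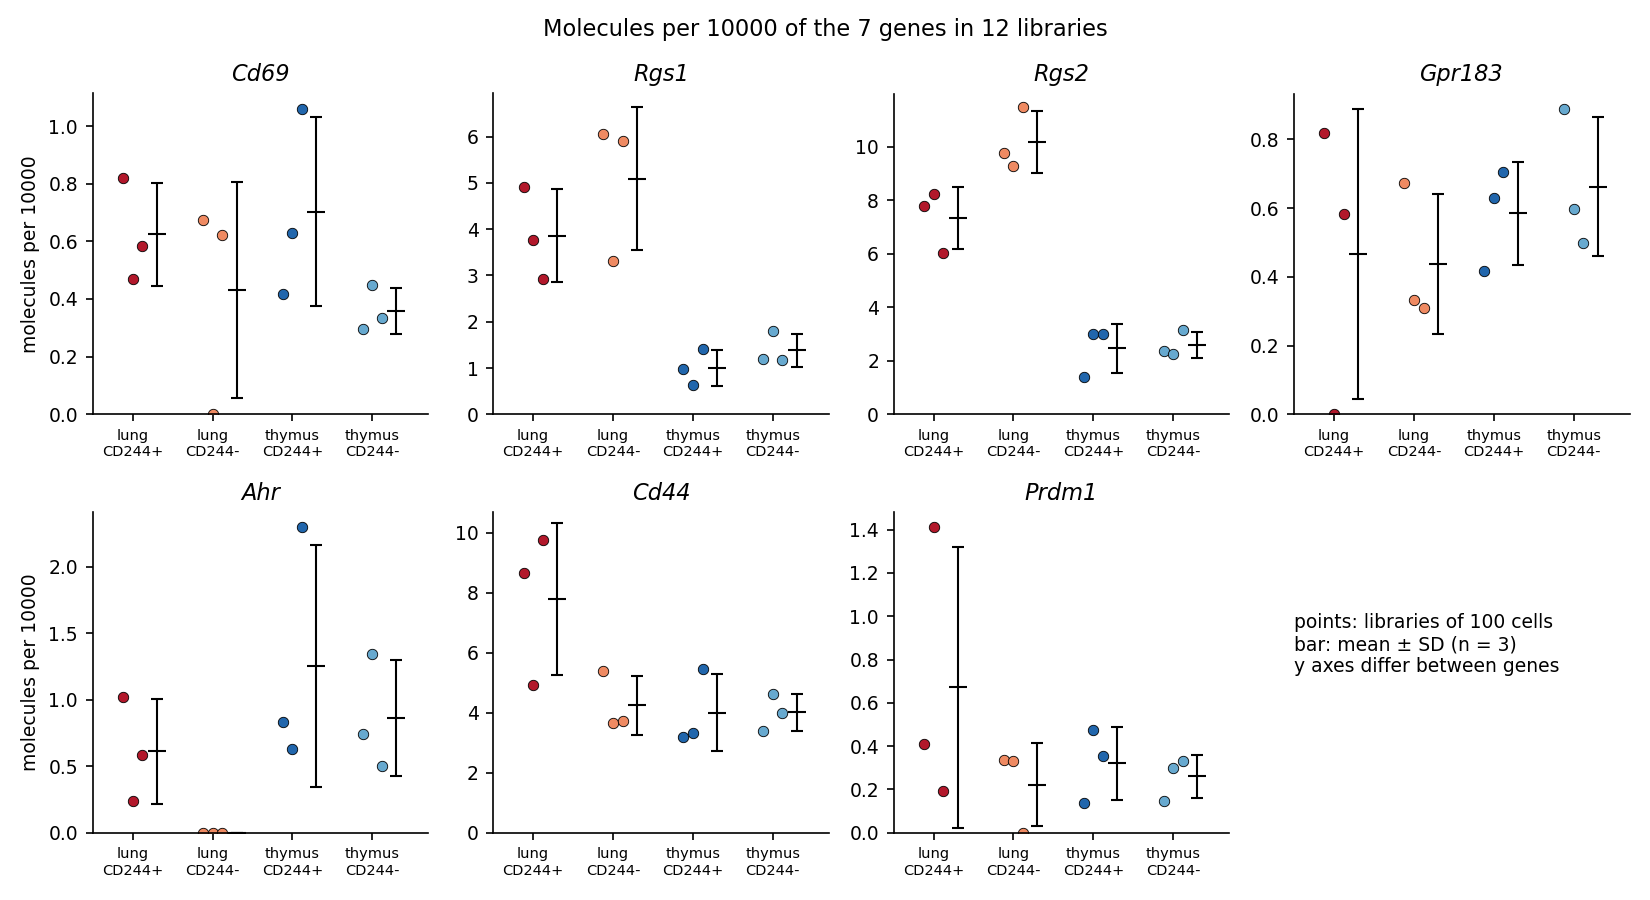
Molecules per 10000 library molecules of each of the 7 genes (vertical axes, linear, starting at 0, and different between genes) in the 12 libraries, by group; points are libraries and bars are the mean ± SD of 3. Rgs1 and Rgs2 lie higher in all 6 lung libraries than in all 6 thymus libraries, Cd44 is highest in lung CD244-positive libraries 1 and 3, and Ahr is at 0 in all 3 lung CD244-negative libraries.

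The tissue comparison asks which genes differ between iNKT cells of lung and thymus within one CD244 fraction. In CD244-positive cells 2 of the 6 tested members, Rgs1 and Rgs2, passed limma's test as higher in lung, beside 5.27% of all 5138 genes tested that were called higher and 14.9% called in either direction. Rgs1 rose by 1.21 ± 0.32 on the log2(value + 1) scale (SE, adjusted p = 0.00309) and Rgs2 by 1.05 ± 0.25 (adjusted p = 0.00113). After bringing the libraries to a common total the differences were 1.59 ± 0.32 for Rgs1 and 1.47 ± 0.25 for Rgs2. With library 1 as the only lung CD244-positive one, the differences were 1.54 for Rgs1 (limma adjusted p = 0.0229) and 1.13 for Rgs2 (adjusted p = 0.0420). Without thymus CD244-positive library 1, which held the lowest Rgs2 level, the Rgs2 difference was 0.74 (limma adjusted p = 0.0600).

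In CD244-negative cells 3 of 6 tested members were called: Rgs1 and Rgs2 as higher in lung, beside 2.18% of all genes, and Ahr as lower, beside 8.52%. Calls in either direction made up 10.7% of all genes. Rgs1 rose by 1.18 ± 0.32 (limma adjusted p = 0.00587, or 1.58 ± 0.32 on the common total) and Rgs2 by 1.38 ± 0.25 (adjusted p = 1.64e-05, or 1.82 ± 0.25 on the common total). The median difference over all tested genes was -0.29 on the deposited scale and -0.04 on the common total, and in CD244-positive cells -0.27 and -0.01. In edgeR's quasi-likelihood test on recovered molecules, the Rgs1 difference was 2.04 in CD244-positive cells (adjusted p = 1.5e-05) and 1.85 in CD244-negative cells (adjusted p = 7.37e-05). Of all genes in that test, 20.4% and 10.4% were called higher in the same order. Groups that did not overlap with lung higher were found for 13.9% of all tested genes in CD244-positive and 10.3% in CD244-negative cells, among them both Rgs genes.

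**Figure D2:**
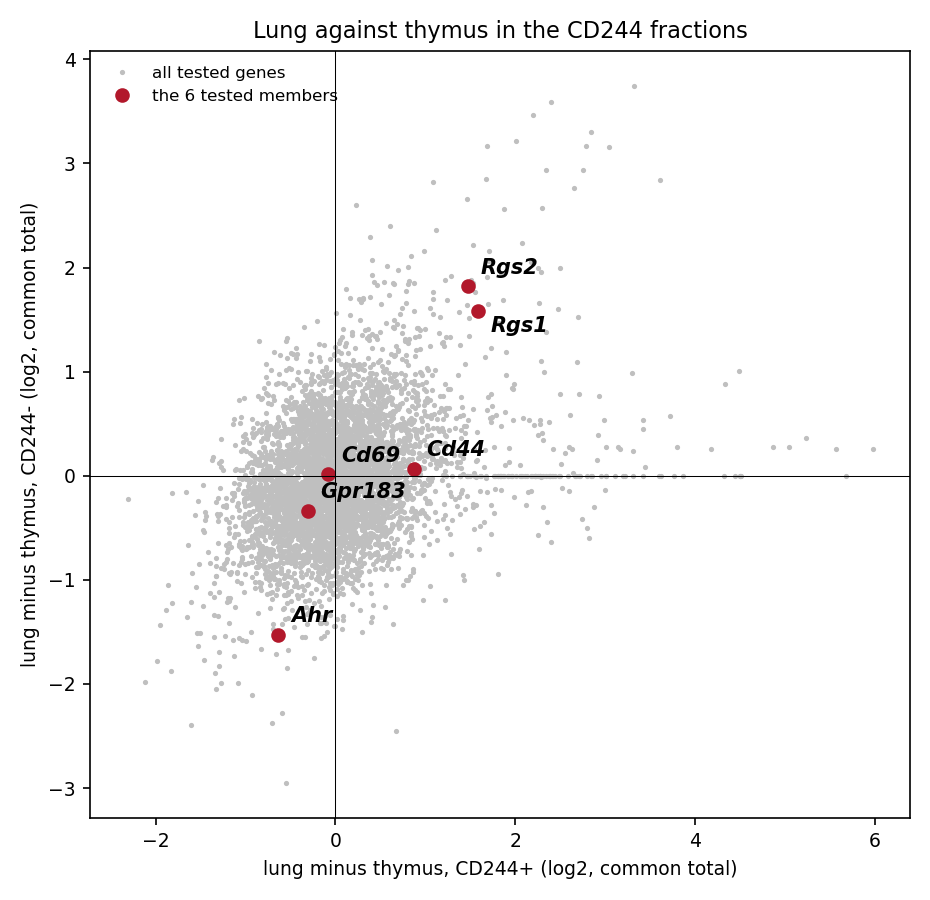
Difference of lung minus thymus in CD244-positive cells (horizontal axis) against that in CD244-negative cells (vertical axis), as log2 fold changes on the common total, for all 5138 tested genes (grey) and the 6 tested members (red). Rgs1 and Rgs2 lie in the upper right, Ahr lies below 0 on both axes, and Cd44 lies at 0.88 on the horizontal axis and near 0 on the vertical one.

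Rgs2 outnumbered Rgs1 in all 4 groups. Rgs2 molecules per Rgs1 molecule numbered 1.89 in lung CD244-positive cells (95% exact interval 1.35 to 2.67) and 2.0 in lung CD244-negative cells (1.39 to 2.90). In thymus the ratio was 2.42 in CD244-positive cells (1.39 to 4.38) and 1.85 in CD244-negative cells (1.14 to 3.08). All 4 intervals overlap.

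Between the CD244 fractions, both Rgs genes had lower means in CD244-positive cells, and neither difference passed the test. In lung all 3 Rgs2 levels of CD244-positive libraries lay below those of CD244-negative libraries, a pattern seen in the lower direction for 9.75% of all genes. The ratio of group levels was 0.713 (95% exact interval 0.534 to 0.953), and limma gave -0.45 ± 0.25 (adjusted p = 0.333). With libraries brought to equal T cell receptor complex levels instead, the Rgs2 difference turned to 0.42 (limma adjusted p = 0.372), so its direction in lung depends on the scaling. Rgs1 gave -0.34 ± 0.32 in lung (adjusted p = 0.612) and turned to 0.49 under the same scaling (adjusted p = 0.362). The median of all tested genes moved to 0.59 under that scaling, so both Rgs genes lay below it. In thymus the difference was -0.37 ± 0.32 for Rgs1 and -0.11 ± 0.25 for Rgs2 (limma adjusted p = 1.0 for both).

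The myeloid markers were at or near 0 in lung CD244-negative cells, where both Rgs genes had higher mean levels than in lung CD244-positive cells. Immediate early genes moved with the tissue difference. These genes, which are switched on within minutes of stimulation or tissue handling, summed to between 99.1 and 113 per 10000 in lung CD244-positive and between 61.3 and 64.9 in lung CD244-negative libraries. In thymus they summed to 21.4 ± 1.5 in CD244-positive and 22.2 ± 0.809 in CD244-negative libraries (SD, n = 3 each). Of 27 tested members of that list, 19 were called higher and 1 lower in lung among CD244-positive cells, and 7 higher and 2 lower among CD244-negative cells. Over all tested genes 5.27% were called higher and 9.61% lower in CD244-positive cells, and 2.18% higher and 8.52% lower in CD244-negative cells. Junb averaged 11.8 ± 1.9 per 10000 in lung and 1.06 ± 0.319 in thymus among CD244-positive cells, and 15.5 ± 2.58 in lung and 1.42 ± 0.663 in thymus among CD244-negative cells. The parts of this list and of the myeloid markers in the Rgs differences were not tested.

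**Figure D3:**
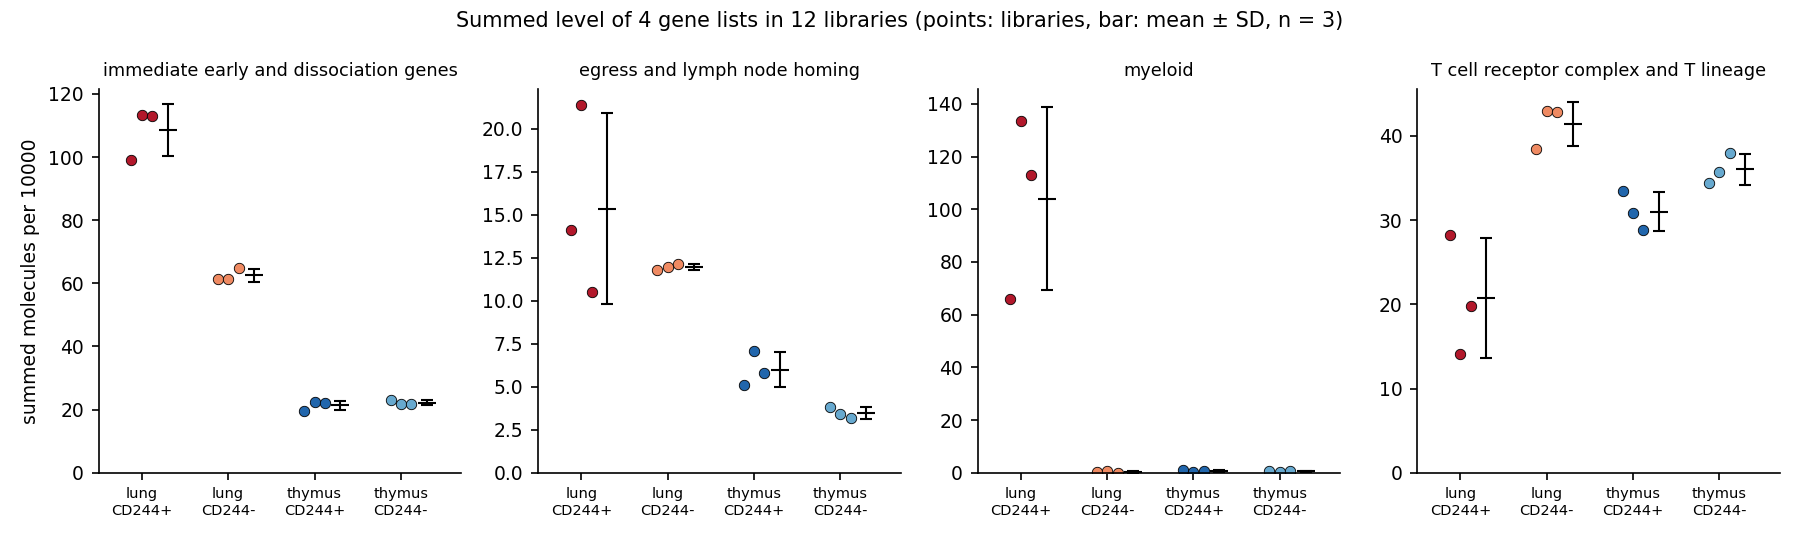
Summed level in molecules per 10000 (vertical axes starting at 0) of the immediate early, egress, myeloid and T lineage lists in each of the 12 libraries, with points for libraries and bars for the mean ± SD of 3. Immediate early genes are higher in all lung libraries than in all thymus libraries, while among the 4 groups myeloid markers are high in lung CD244-positive cells, whose T lineage sums are the lowest.

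Of 17 further RGS family genes, 3 were tested, and none was called higher in any of the 5 comparisons. Rgs10, a GTPase activator for Gi, fell in lung among CD244-negative cells (-1.39 ± 0.40, limma adjusted p = 0.0131) with 0.430 ± 0.166 per 10000 in lung and 1.39 ± 0.0909 in thymus (SD, n = 3 each). On the common total its difference was -1.10 (adjusted p = 0.129), and on the deposited scale the call was lost without thymus CD244-negative library 3 (adjusted p = 0.0539) or lung CD244-negative library 2 (adjusted p = 0.0508). Of 17 genes of G protein subunits, 11 were tested. Gna13, which encodes a G protein alpha subunit, rose in lung in both fractions, with 3.97 ± 1.88 per 10000 in lung and 1.14 ± 0.695 in thymus among CD244-positive cells. Its differences were 1.11 ± 0.32 in CD244-positive cells (limma adjusted p = 0.00971) and 0.94 ± 0.32 in CD244-negative cells (adjusted p = 0.0454). Leaving out thymus CD244-positive library 1 or 2 or lung CD244-positive library 1 ended the call in CD244-positive cells (0.78 to 0.96), and 7 of the 12 leave-outs ended it in CD244-negative cells (0.83 to 0.99). On the common total Gna13 was called in both fractions (1.49, adjusted p = 0.000482, and 1.34, adjusted p = 0.00399). Gnai2, the main Gi alpha subunit of lymphocytes, was higher in CD244-positive than in CD244-negative cells of the lung (0.70 ± 0.22, limma adjusted p = 0.0261). It fell in lung against thymus among CD244-negative cells (-0.72 ± 0.22, adjusted p = 0.0170), a difference of -0.28 on the common total (adjusted p = 0.545). Without library 2 (0.72) or 3 (0.62) of the lung CD244-positive cells, or library 1 of the lung CD244-negative cells (0.50), the lung call on Gnai2 was lost, and the tissue call without thymus CD244-negative library 2 (-0.62) or lung CD244-negative library 1 (-0.52). With library 1 as the only lung CD244-positive one, Gnai2 differed by 0.60 between the lung fractions. In bulk samples a lower level can come from fewer cells that express a gene or from less RNA of it per cell, and these cannot be told apart here.

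Cd69 (chromosome 6, 129267325 to 129275436, minus strand), the S1PR1 antagonist and the usual surface marker of residency, was scarce. It had 4, 2 and 3 molecules in lung CD244-positive libraries and 2, 0 and 2 in lung CD244-negative libraries. Thymus libraries held 3, 4 and 6 molecules in CD244-positive cells and 2, 3 and 2 in CD244-negative cells. The libraries of all groups overlapped, and most counts were at or below the floor of 3. Per 10000 molecules the means were 0.624 ± 0.178 in lung CD244-positive, 0.432 ± 0.375 in lung CD244-negative, 0.703 ± 0.327 in thymus CD244-positive cells and 0.359 ± 0.0795 in thymus CD244-negative cells.

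No comparison of Cd69 passed the test. The largest fitted difference was that between the thymus fractions, with CD244-positive cells at 0.52 ± 0.40 above CD244-negative cells (limma adjusted p = 1.0). The ratio of levels there was 1.88 with an exact interval of 0.698 to 5.57, and between lung and thymus it was 0.930 (0.351 to 2.35) in CD244-positive and 1.21 (0.259 to 4.75) in CD244-negative cells. A difference as large as that of Rgs1 or Rgs2 lies outside the interval for CD244-positive cells, while for CD244-negative cells it was not detectable at this depth. Cd69 transcript is not CD69 protein on the surface, which was not measured.

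Egress genes that oppose CD69 were read from the same libraries. S1pr1, the receptor CD69 takes off the surface, had 31 molecules in lung CD244-positive, 13 in lung CD244-negative, 8 in thymus CD244-positive cells and 1 in thymus CD244-negative cells. It rose in lung against thymus in both fractions, by 1.39 ± 0.40 in CD244-positive cells (limma adjusted p = 0.00832) and by 1.70 ± 0.40 in CD244-negative cells (adjusted p = 0.00125). In CD244-positive cells the S1pr1 call was lost without thymus CD244-positive library 1 (1.14) or 3 (1.20) or lung CD244-positive library 1 (1.16). Klf2, which drives S1pr1 transcription, rose in lung among CD244-negative cells (1.59 ± 0.36, adjusted p = 0.000634) and in thymus CD244-positive over CD244-negative cells (1.96 ± 0.36, adjusted p = 0.000208). Of 8 tested egress and homing genes, 2 were called higher in lung in CD244-positive cells and 3 in CD244-negative cells, with none called lower, beside 5.27% and 2.18% of all genes called higher in the same order. The 2 in CD244-positive cells were S1pr1 and Cx3cr1, the latter at 1.46 to 2.66 over leave-outs. With library 1 as the only lung CD244-positive one, S1pr1 differed by 1.85 and Cx3cr1 by 0.96. The part of the myeloid markers in these 2 calls was not tested.

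Gpr183 (chromosome 14, 121952551 to 121965195, minus strand), the oxysterol receptor, was also near the floor. It had 4, 0 and 3 molecules in lung CD244-positive, 2, 1 and 1 in lung CD244-negative, 3, 4 and 4 in thymus CD244-positive and 6, 4 and 3 in thymus CD244-negative libraries. The groups overlapped in every comparison, and no difference passed the test. Its level in lung relative to thymus was 0.855 (95% exact interval 0.281 to 2.42) in CD244-positive and 0.650 (0.154 to 2.10) in CD244-negative cells. Gpr183 lies within Ubac2, which is on the opposite strand and was counted at 51 molecules over all libraries. The counting is not stated to use strand, so it is not known whether reads of their shared span were given to the right gene. Of 6 genes of oxysterol enzymes and related receptors, 2 were tested and none was called in any of the 5 comparisons.

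Cd44 (chromosome 2, 102811141 to 102901665, minus strand), the hyaluronan receptor that rises on antigen-experienced T cells, was the member that differed between the lung fractions. It had 8.65, 4.94 and 9.77 molecules per 10000 in lung CD244-positive libraries, against 5.39, 3.65 and 3.73 in lung CD244-negative libraries. Libraries 1 and 3 of the CD244-positive cells lay above all others, and library 2 overlapped the CD244-negative libraries. The means were 7.79 ± 2.53 and 4.25 ± 0.982 in the same order (SD, n = 3 each). The ratio of levels was 1.88 (95% exact interval 1.30 to 2.78).

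Among 6 tested members, Cd44 alone was called between the lung fractions, as higher in CD244-positive cells, beside 5.61% of all genes called higher and 8.43% called in either direction. The difference was 0.77 ± 0.25 (limma adjusted p = 0.0415), close to the threshold. It was 1.04 in edgeR (adjusted p = 0.00679), in which 13.2% of genes were called higher. The call was lost without lung CD244-positive library 1 (0.67, adjusted p = 0.171) or 3 (0.59, adjusted p = 0.287) and without lung CD244-negative library 2 (0.68, adjusted p = 0.142) or 3 (0.69, adjusted p = 0.125). It was also lost with a pseudocount of 0.5 (0.80, adjusted p = 0.0545).

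The myeloid markers were high in all 3 lung CD244-positive libraries, and Cd44 is also expressed by myeloid cells. Library 1 had a myeloid sum of 65.8 and an MHC class II sum of 49.7 per 10000 with 8.65 of Cd44, library 2 had sums of 133 and 71.6 with 4.94 of Cd44, and library 3 had sums of 113 and 128 with 9.77 of Cd44. With library 1 as the only lung CD244-positive library, the difference was 0.96 (limma adjusted p = 0.154), where that library is assumed to vary like the other groups. With T cell receptor complex levels made equal the difference was 1.65 (adjusted p = 0.000124), while the median of all genes moved to 0.59 and 21.9% of them were called higher. How much of the Cd44 RNA came from other cells was not tested.

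In thymus the fractions overlapped in Cd44, with 3.20, 3.31 and 5.48 molecules per 10000 in CD244-positive and 3.41, 4.64 and 3.99 in CD244-negative libraries. The ratio was 0.975 with an exact interval of 0.700 to 1.36, and limma gave -0.03 ± 0.25 (adjusted p = 1.0). The CD244 difference in lung exceeded that in thymus by 0.80 ± 0.36, which did not pass the test of the difference itself (limma adjusted p = 0.305). Of the settings run it passed only under T cell receptor complex scaling (1.55, adjusted p = 0.0354), under which 5.39% of genes were called higher. Lung and thymus CD244-positive cells differed by 0.44 ± 0.25 on the deposited scale (adjusted p = 0.277) and by 0.88 ± 0.26 on the common total (adjusted p = 0.0138), where 6.85% of genes were called higher, so the call depends on the scale. It was also called by edgeR (1.10, adjusted p = 0.000334), beside 20.4% of its genes called higher. Under T cell receptor complex scaling it was called as well (1.92, limma adjusted p = 6.2e-06). Under that scaling the median of all tested genes was 0.69 and 25.4% of them were called higher. With library 1 as the only lung CD244-positive one, the Cd44 difference was 0.63. In CD244-negative cells the tissue difference was -0.36 ± 0.25 on the deposited scale and 0.07 on the common total, neither called.

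Of 12 genes of CD44 ligands, linkers and adhesion partners, 6 were tested. Cd9, a tetraspanin found in complexes with CD44, was called higher in CD244-positive cells of the lung against CD244-negative cells (1.51 ± 0.43, limma adjusted p = 0.0121) and against thymus CD244-positive cells (2.08 ± 0.43, adjusted p = 0.00011). Without library 1 (1.34) or 3 (0.89) of the lung CD244-positive cells, or library 1 of the lung CD244-negative cells (1.37), the call between the lung fractions was lost. With library 1 as the only lung CD244-positive one, Cd9 differed by 1.86 between the lung fractions and by 2.42 against thymus. The part of the myeloid markers in the Cd9 differences was not tested. Selplg, which encodes the selectin ligand PSGL-1, fell in lung CD244-positive against thymus CD244-positive cells (-1.19 ± 0.25, adjusted p = 9.19e-05). Its level was 4.59 ± 2.15 per 10000 in lung and 7.49 ± 1.23 in thymus (SD, n = 3 each). The common total gave -0.76 (adjusted p = 0.0373). In edgeR the Selplg difference was -0.62 (adjusted p = 0.0523), and it turned to 0.26 under T cell receptor complex scaling (limma adjusted p = 0.562). The median of all tested genes under that scaling was 0.69.

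**Figure D4:**
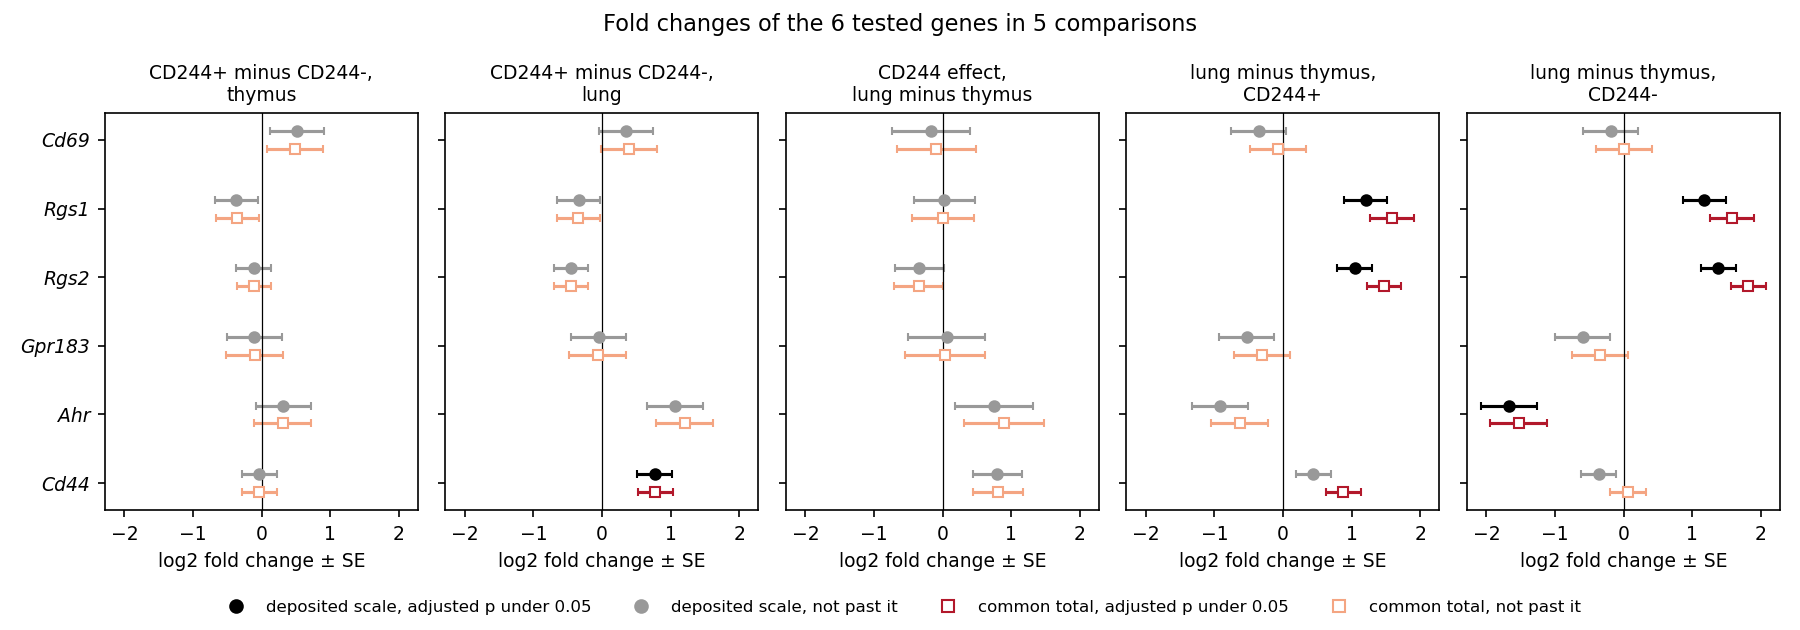
Fitted log2 fold changes ± SE of the 6 tested members in the 5 comparisons, on the deposited scale (circles, black where the adjusted p is under 0.05) and on the common total (squares, dark red where it is under 0.05). On both scales Rgs1 and Rgs2 are called higher in lung in both fractions, Ahr lower in lung among CD244-negative cells and Cd44 higher in CD244-positive cells of the lung, while lung against thymus CD244-positive cells is called for Cd44 on the common total alone of the 2 scales.

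Ahr (chromosome 12, 35497974 to 35535038, minus strand), the ligand-activated aryl hydrocarbon receptor, was not seen in lung CD244-negative cells. It had 5, 1 and 3 molecules in lung CD244-positive libraries and 0, 0 and 0 in lung CD244-negative libraries. In thymus it had 6, 4 and 13 molecules in CD244-positive and 5, 9 and 3 in CD244-negative libraries. A count of 0 of 92037 molecules allows a level of up to 0.326 per 10000 in lung CD244-negative cells, against means of 0.614 ± 0.395 in lung CD244-positive, 1.25 ± 0.908 in thymus CD244-positive cells and 0.862 ± 0.436 in thymus CD244-negative cells (SD, n = 3 each).

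Among CD244-negative cells the exact interval of the ratio of lung to thymus Ahr levels had an upper end of 0.512. With the lung group set to a floor of 3 molecules, its level was 2.68-fold lower than in thymus. That value leaves out the counting error of the thymus molecules and is not a lower bound. The fitted difference was -1.67 ± 0.41 (limma adjusted p = 0.00184). On the common total it was -1.53 ± 0.42 (adjusted p = 0.0129), and under T cell receptor complex scaling it was -1.35 and no longer called (adjusted p = 0.121). Groups that did not overlap with lung lower were found for 10.2% of all genes in this comparison.

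Between the lung fractions the 95% exact interval of the ratio of CD244-positive to CD244-negative cells began at 1.27. It had no upper end, because the CD244-negative count was 0. The libraries did not overlap, as for 11.6% of all genes with CD244-positive higher. The fitted difference of 1.07 ± 0.41 missed the threshold on the deposited scale (limma adjusted p = 0.0909) and passed it with a pseudocount of 0.5 (1.65, adjusted p = 0.0468). It also passed under T cell receptor complex scaling (1.76, adjusted p = 0.00408). Under that scaling the median of all tested genes moved to 0.59 and 21.9% of them were called higher. The scaling rests on 4 genes, which summed to 5.64 per 10000 in lung CD244-positive library 2. In CD244-positive cells Ahr in lung stood at 0.526 of the thymus level (95% exact interval 0.214 to 1.18). The fitted difference of -0.92 ± 0.41 was not called (limma adjusted p = 0.123), nor was that of -0.63 on the common total (adjusted p = 0.430). The thymus fractions had a ratio of 1.37 (0.701 to 2.74) and a difference of 0.32 ± 0.41 (adjusted p = 1.0). The myeloid markers were high in the lung CD244-positive libraries in which Ahr was seen, and their part in its 9 molecules was not tested.

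Of 11 further genes of the AHR pathway (the partner Arnt, chaperones and known targets), 5 were tested. Tiparp, a target that feeds back on AHR, rose in lung against thymus in CD244-positive cells (1.12 ± 0.40, limma adjusted p = 0.0438), with 15 molecules in lung and 3 in thymus. That call was lost in 5 of the 12 leave-outs, with differences of 0.89 to 1.17. With library 1 as the only lung CD244-positive one, Tiparp differed by 0.67. In CD244-negative cells it had 4 molecules in lung and 2 in thymus, and the difference was 0.42 ± 0.40 (adjusted p = 0.559). Hsp90ab1, a chaperone that holds AHR in the cytosol, fell in CD244-positive cells by 0.73 on the deposited scale, and by 0.27 without a call on the common total (adjusted p = 0.418). Under T cell receptor complex scaling its direction turned (0.80, limma adjusted p = 0.0274), while the median of all tested genes was 0.69 and 25.4% of them were called higher.

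Prdm1 (chromosome 10, 44437177 to 44528501, minus strand), which encodes the repressor BLIMP-1, had the fewest molecules of the 7 genes, 22 over all libraries. It had 2, 6 and 1 molecules in lung CD244-positive, 1, 1 and 0 in lung CD244-negative, 1, 3 and 2 in thymus CD244-positive and 1, 2 and 2 in thymus CD244-negative libraries. Only lung CD244-positive library 2, the one with the highest myeloid sum, held more than 3 molecules, and the part of the myeloid markers in this was not tested. Prdm1 was above 1 deposited unit in 2 libraries and was therefore not tested with the other 6. With no filter on low values its difference between the lung fractions was 0.59 ± 0.40 (limma adjusted p = 0.545), and the ratio was 2.90 with an exact interval of 0.60 to 27.6.

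Genes that act with or against BLIMP-1 in T cells were measured better. Of 12 listed genes, 7 were tested, and 3 fell in lung in each fraction (beside 9.61% of all genes called lower in CD244-positive and 8.52% in CD244-negative cells). On the common total 1 was called higher (Maf) and 1 lower in CD244-positive cells, and 2 lower in CD244-negative cells. Maf was also called higher in the difference of the CD244 effects between tissues, beside 2.65% of all genes. That call was lost in 4 leave-outs, with differences of 1.17 to 1.45. With library 1 as the only lung CD244-positive one, the value was 1.55. The part of the myeloid markers in the Maf differences was not tested. Id2, an inhibitor of E proteins, had 4.53 ± 0.562 molecules per 10000 in lung and 19.1 ± 1.05 in thymus among CD244-positive cells. In CD244-negative cells it had 5.67 ± 0.989 in lung and 20.4 ± 1.98 in thymus (SD, n = 3 each). The differences were -2.43 ± 0.19 (limma adjusted p = 6.02e-20) and -2.23 ± 0.19 (adjusted p = 1.35e-17) in the same order.

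Other residency-associated genes moved in both directions. In CD244-positive cells 2 of 20 tested genes were called higher and 7 lower in lung, and in CD244-negative cells 3 were called higher and 4 lower. Over all genes the shares called higher and lower were 5.27% and 9.61% in CD244-positive cells and 2.18% and 8.52% in CD244-negative cells. On the common total the counts were 3 higher and 5 lower in CD244-positive cells and 3 higher and 2 lower in CD244-negative cells. The median difference of the list was -0.08 and -0.06 in the same order, beside -0.27 and -0.29 over all genes. The gate gene Cxcr6 was among those called lower in CD244-positive cells, at -3.40 to -2.24 over leave-outs. With library 1 as the only lung CD244-positive one its difference was -1.11. Between the lung fractions Icos and Cxcr6 were the 2 of 20 called lower in CD244-positive cells, beside 2.82% of all genes. With library 1 as the only lung CD244-positive one, Cxcr6 differed by -0.36 and Icos by -1.65 between the lung fractions. The part of the low T lineage sums in the Cxcr6 and Icos calls was not tested. Itgae, the alpha chain of the E-cadherin-binding integrin CD103, fell in lung in both fractions, with 6 molecules in lung and 53 in thymus among CD244-positive cells and 1 in lung and 29 in thymus among CD244-negative cells. Inpp4b, a phosphoinositide phosphatase, also fell in both (-1.79 and -1.55, limma adjusted p = 9.22e-08 and 6.01e-06). Both genes were also called lower in both fractions on the common total. Under T cell receptor complex scaling Inpp4b was not called in CD244-positive (-0.46, adjusted p = 0.338) or CD244-negative cells (-0.82, adjusted p = 0.266), and Itgae was not called in CD244-positive cells (-1.11, adjusted p = 0.0631). P2ry10, a lysophospholipid receptor, rose in lung, with 8.57 ± 1.39 per 10000 in lung and 0.902 ± 0.664 in thymus among CD244-negative cells (2.47 ± 0.30, adjusted p = 2.14e-10). Among CD244-positive cells its difference was 1.27 ± 0.30 (adjusted p = 0.000788).

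Between the thymus fractions none of the 6 tested members was called by limma, beside 0.409% of all genes, and none had an unadjusted p under 0.05. In edgeR 3 members could be tested and 0 were called, beside 2.52% of its genes, with none at an unadjusted p under 0.05. For the difference of the CD244 effects between tissues, 0 of 6 were called by limma, beside 3.27% of all genes, and 1 member, Cd44, had an unadjusted p under 0.05. In edgeR 0 of 3 were called in that comparison, beside 3.68% of its genes, with 1 at an unadjusted p under 0.05.

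The genes most alike to each member over the 12 libraries were read as a description, since the libraries fall into 4 groups and share their depth and tissue. Rgs2 was most like Gramd3 (Pearson r = 0.99 over 12 libraries), the small RNA repeat entry Rn4.5s (0.95) and Crem (0.94), the gene of a cAMP response element modulator. Rgs1 was most like Gna13 (0.92), Rn4.5s (0.90) and H3f3b (0.89). Ahr was most like Snrpf (0.89), Psmb3 (0.88) and Ucp2 (0.86). The closest genes to Cd44 reached lower values, with 0.73 for Actg1, 0.69 for Ctsc and 0.68 for Fth1. Cd69 was closest to Gng5 (0.84) and Gpr183 to Lck (0.82).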

How the data were processed

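RNA of 12 libraries was read through molecular barcodes in the oligo-dT primer, template switching and PCR, per the labels' protocols. ERCC spike-in RNA was added to each tube, but the table holds no ERCC rows. Reads were mapped with STAR to mm10, per the submitters' processing notes; the counting step, annotation and scaling formula are not given in the sources used here. The deposited values are a signal that the authors scaled: each is a number of molecules multiplied by a factor of its library. Dividing by the most frequent value recovered molecules, whole within 1e-06 for 94.3% to 95.9% of nonzero values.

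The 5138 genes above 1 unit in at least 3 libraries were tested as log2(value + 1) with limma 3.58.1 in R 4.3.3 (robust, with a trend), 4 group means and 5 contrasts, two-sided. Benjamini-Hochberg adjustment ran over all genes, with a call at an adjusted p under 0.05. The smallest p an exact permutation of 3 and 3 libraries allows is 0.1. edgeR 4.0.16 (quasi-likelihood, TMM, filterByExpr) on rounded molecules tested 1113 genes as an alternative. The common total scales each library to the mean of all totals. Ratios of molecules carry exact 95% binomial intervals. The fit was tested on simulated data. Genes were named by rule: all members, up to 4 genes of smallest p in each pathway list, the 3 genes most alike to each tested member with a mean of at least 5 units, and gate and marker genes. Not all are printed. The members and lists were chosen with earlier results of these data known. Positions are from GENCODE M21 and promoters from RefSeq. Other settings tried were other pseudocounts and filters, quantile normalization, T cell receptor complex scaling, only the libraries compared, a replicate block, and libraries left out.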

Additional observations from a re-analysis of the deposited data

How the results depend on the processing

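Of 654 refits of the member differences, 587 kept their direction and side of the threshold, 11 lost a call, 6 gained one and 50 changed sign, none of the last called. In thymus 0 members were called under any setting. Between the lung fractions the count of 1 became 0 with no filter, with the replicate block, with only the libraries compared and with lung CD244-positive library 1 alone, became 2 under T cell receptor complex scaling (Ahr and Cd44), and was 0 to 1 over leave-outs. It stayed at 1 with a pseudocount of 0.5, where Cd44 lost its call (0.80, adjusted p = 0.0545) and Ahr gained one (1.65, adjusted p = 0.0468). For the difference between tissues it was 1 (Cd44) under that scaling, and 0 otherwise. For lung against thymus it was 1 to 2 in CD244-positive and 3 in CD244-negative cells over leave-outs. No pairing by replicate number was seen: 18 same-number correlations of deviations lay between -0.03 and 0.02. Counting error in low counts could hide a shared source, so these values cannot show that the libraries were unpaired. The replicate block took the lung count of 1 to 0 with Cd44 at 0.77 (limma adjusted p = 0.0505).

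T cell receptor complex scaling moved the median of all tested genes to 0.59 between the lung fractions and to 0.53 in the difference of the CD244 effects. For lung against thymus the median moved to 0.69 in CD244-positive and 0.12 in CD244-negative cells. Values that changed sign, none called unless stated, were as follows. Under T cell receptor complex scaling, the thymus fractions gave 0.023 for Rgs2 and 0.10 for Cd44, the lung fractions 0.49 for Rgs1, 0.42 for Rgs2 and 0.26 for Gpr183, and their difference 0.43 for Cd69 and 0.40 for Rgs2. Lung against thymus gave 0.62 for Cd69, 0.13 for Gpr183, 0.019 for Ahr, 0.26 for Selplg and 0.80 (called) for Hsp90ab1 in CD244-positive cells, and 0.20 for Cd69, 0.37 for Cd44 and 0.035 for Gnai2 in CD244-negative cells. On the common total the last comparison gave 0.012 for Cd69 and 0.066 for Cd44, by quantile normalization 0.10 for Cd69 and by edgeR 0.074 for Cd44. Cd44 in thymus gave 0.0090 in edgeR. Gpr183 between the lung fractions gave 0.0062 with a pseudocount of 5 and 0.50 with library 1 alone, which gave 0.071 for Cd69 in the difference and 0.018 for Gpr183 between tissues. In the difference, Rgs1 gave -0.061 with a pseudocount of 5 and -0.027 by quantile normalization, and Gpr183 gave -0.0084 with a pseudocount of 0.5 and -0.0018 by quantile normalization.

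Leaving out 1 library spanned zero in thymus for Rgs2 (-0.27 to 0.20), Gpr183 (-0.22 to 0.046), Ahr (-0.11 to 0.60) and Cd44 (-0.26 to 0.091), in lung for Cd69 (-0.040 to 0.56) and Gpr183 (-0.32 to 0.36), in the difference for Cd69 (-0.56 to 0.061), Rgs1 (-0.23 to 0.23) and Gpr183 (-0.21 to 0.47), and in lung against thymus CD244-negative cells for Cd69 (-0.40 to 0.20). The cause was not tested. Cd69, Gpr183 and Prdm1 are limited by depth, with 22 to 35 molecules each over 12 libraries.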
